A study of Arabidopsis thaliana with 5 samples.

Results

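R-loops were examined over the protein-coding genes that lie around the centromeres of Arabidopsis thaliana. A gene was counted as pericentromeric when its midpoint lay within 2.5 Mb of 15.1 Mb on chromosome 1, 3.6 Mb on chromosome 2, 13.8 Mb on chromosome 3, 4.0 Mb on chromosome 4 or 11.7 Mb on chromosome 5. By this rule 2137 of 27432 nuclear protein-coding genes were pericentromeric, and the other 25295 are called arm genes. The windows held 417 genes on chromosome 1, 513 on chromosome 2, 326 on chromosome 3, 482 on chromosome 4 and 399 on chromosome 5. The rule uses position only and no peak value.

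An R-loop is a structure in which an RNA pairs with one strand of the DNA and leaves the opposite strand single. R-loops form most often where RNA is being made, so they are found over many transcribed genes. The DNA around plant centromeres is mostly heterochromatin, densely packed and methylated, and is rich in transposons and poor in genes. The genes that lie there stand among silenced repeats, and many of them are nonetheless active.

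R-loops were mapped by DNA:RNA immunoprecipitation (DRIP), in which the S9.6 antibody pulls down DNA that holds DNA:RNA hybrids. All 5 samples were wild-type seedlings of the Columbia ecotype, 12 days old: 2 replicates of DRIP, 2 of DRIP after RNase H, an enzyme that removes the RNA of a hybrid, and 1 input. Peak lists of the 2 DRIP replicates were analysed, together with a w and a c list of strand-specific peaks recorded under DRIP replicate 1; the RNase H and input samples were not analysed here. Whole seedlings mix cell types, so fewer cells with an R-loop and fewer R-loops per cell cannot be told apart. The lists give no read totals, so depth is unknown, and nothing in the labels says whether the replicates were separately grown, so their spread is possibly only technical.

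Pericentromeric genes carried DRIP peaks less often than arm genes before gene length was considered, and slightly more often once it was. A peak in both replicates was found at 1207 of the 2137 genes (56.5%), beside 60.6% of all protein-coding genes and 60.9% of arm genes. Pericentromeric genes were shorter, with a median length of 1602 bp against 2106 bp in the arms. Arm genes of the same length, weighted over 20 length bins, carried a peak in both replicates in 53.7% of cases, 2.75 percentage points below the pericentromeric genes. In replicate 1 a peak was found at 1340 genes (62.7%), beside 67.3% of all protein-coding genes and 60.2% of arm genes of the same length. In replicate 2 it was found at 1244 (58.2%), beside 62.1% and 55.3%. Neither replicate had one at 760 genes (35.6%), beside 31.2% and 38.2%. The replicates thus differed by more within either gene group (60.5% ± 3.18 and 57.8% ± 3.45, SD, n = 2) than the groups differed from each other, but the difference within a replicate was alike in both, at 2.70 ± 0.28 points.

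Both groups were read in the same 2 libraries, and an exact sign-flip test of 2 paired differences cannot go below a two-sided p of 0.5, so no p is given for this difference. The difference turned to -0.49 points without chromosomes 2 and 5 and to -1.51 points when peaks were limited to those above the median fold of each list, and it was 0.43 points when at least 0.5 of a peak had to lie inside the gene.

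The share with a peak rose with gene length, from 34.7% in the shortest quartile to 80.8% in the longest as the mean of the replicates. This span was wider than that between chromosomes (57.0% to 65.5%). An overlap of 1 bp was enough for a call, so a longer gene has more bases on which a peak can count. The share of gene bases under peaks did not rise in this way. From the shortest to the longest quartile it was 15.8%, 18.8%, 18.2% and 13.8%. In the shortest quartile, of genes from 27 to 842 bp, 36.4% carried a peak in replicate 1 and 32.9% in replicate 2, against 30.3% and 27.4% of arm genes of the same length. In the longest quartile, of genes from 2667 to 12636 bp, the pericentromeric shares were 82.8% and 78.8% and the arm shares 82.2% and 76.6%. The excess over arm genes was 5.82 ± 0.48 points in the shortest quartile (SD, n = 2) and 0.57 and 2.27 points in replicates 1 and 2 in the longest. The short genes are where the 2 groups lay farthest apart. They include genes of the mitochondria-like stretch of chromosome 2 described below, such as AT2G07732 of 740 bp. All genes of that stretch together lay 16.4 ± 0.059 points above arm genes of the same length. The part of the stretch in the excess of the shortest quartile was not tested.

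**Figure D1:**
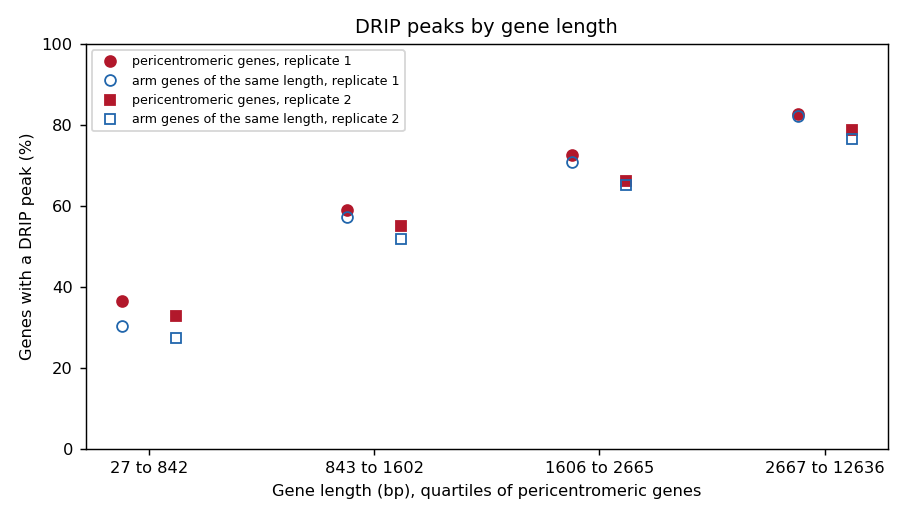
Share of genes with a DRIP peak (%, vertical axis) by gene length quartile of the pericentromeric genes (bp, horizontal axis). Filled red points are pericentromeric genes and open blue points arm genes weighted to the same lengths, with circles for replicate 1 and squares for replicate 2; the shares rose from 36.4% to 82.8% in replicate 1 and from 32.9% to 78.8% in replicate 2.

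Peaks at pericentromeric genes had lower folds than those at arm genes. The fold is the authors' value for a peak, its height at the summit over the local background, and a gene takes the highest fold of the peaks that overlap it. Among pericentromeric genes with a peak the median fold was 3.43 in replicate 1 and 3.35 in replicate 2, against 3.67 and 3.57 for arm genes weighted to the same lengths. The difference was -0.23 ± 0.016 (SD, n = 2), larger than the spread between replicates, and it kept its sign in every alternative tried for it. The w list gave 4.57 against 4.86 and the c list 4.60 against 4.89. By chromosome, the fold was not lower in every list: chromosome 5 had 3.68 against 3.67 in replicate 1, though 3.51 against 3.60 in replicate 2, and chromosome 3 had 5.01 against 4.86 in the w list.

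The share of gene bases under peaks was 16.5% in replicate 1 and 15.1% in replicate 2, against 15.8% and 14.2% in arm genes of the same length. This difference, 0.81 ± 0.11 points (SD, n = 2), turned to -0.083 points without chromosomes 2 and 5 and to -0.26 points with peaks above the median fold of their list. It was also below 0 among genes with no other gene within 500 bp (-0.46) and among genes with a symbol (-0.17). In replicate 1, 2280 peaks overlapped a pericentromeric gene, 4.82% of that list, and in replicate 2 there were 1963, or 4.92%. Their median widths of 256.5 and 289 bp were close to the 254 and 285 bp of peaks over arm genes.

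Most genes with a peak held just 1. In replicate 1, 721 pericentromeric genes did so (33.7%), against 32.3% of arm genes of the same length. In replicate 2 there were 723 (33.8%), against 32.1%. Those with 2 peaks numbered 371 and 339 in replicates 1 and 2 (17.4% and 15.9%), against 17.5% and 15.5%. Of 1340 genes with a peak in replicate 1, 90.1% had one in replicate 2, against 89.1% for arm genes of the same length. Of 1244 genes with a peak in replicate 2, 97.0% had one in replicate 1, against 97.1%. A peak in replicate 1 only was found at 133 genes (6.22%), against 6.46% of arm genes of the same length. One in replicate 2 only was found at 37 (1.73%), against 1.58%. Genes in the lowest quartile of replicate 1 fold were found again in 68.9% of cases and those in the highest in 99.7%.

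The 5 windows differed. Pericentromeric genes of chromosome 2 carried DRIP peaks in 62.8% and 59.3% of cases in replicates 1 and 2, 7.02 ± 0.83 points above arm genes of the same length (SD, n = 2). Those of chromosome 5 reached 67.7% and 63.4%, which is 5.23 ± 0.53 points above. Chromosome 3 lay 2.74 ± 0.60 points above the arm genes, chromosome 4 lay at -0.36 ± 0.082 points and chromosome 1 at -1.43 ± 0.41 points. Against the arms of its own chromosome each window kept its sign, and chromosomes 1 and 4 changed places, with 6.79 ± 1.39 points for chromosome 2, 6.11 ± 0.89 for chromosome 5, 2.18 ± 0.059 for chromosome 3, -0.61 ± 0.68 for chromosome 1 and -1.54 ± 0.13 for chromosome 4. The windows are single stretches of DNA, and their genes are not replicates, so these differences were not tested.

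**Figure D2:**
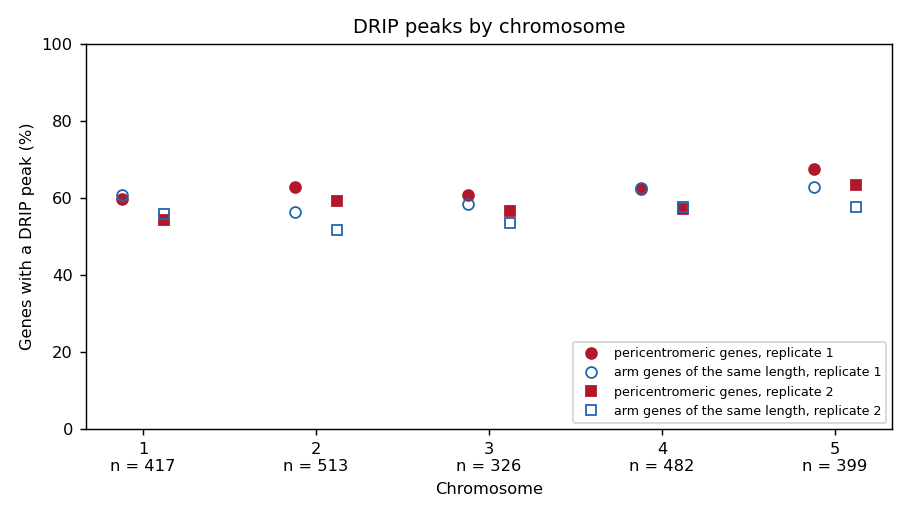
Share of genes with a DRIP peak (%, vertical axis) in the window of each chromosome (horizontal axis, n is the number of pericentromeric genes). Filled red points are pericentromeric genes and open blue points arm genes of all chromosomes weighted to the same lengths, with circles for replicate 1 and squares for replicate 2; the red points lie farthest above the blue ones on chromosomes 2 and 5 and just below them on chromosomes 1 and 4.

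The genes nearest the centres were few and short, yet carried peaks as often as those farther out. Within 500 kb of a centre lay 193 genes with a median length of 1019 bp, of which 63.7% had a peak in replicate 1 and 60.1% in replicate 2. At 2000 to 2500 kb lay 803 genes with a median length of 1641 bp, and 60.9% and 56.0% had one. Set against arm genes of the same length, the difference was 11.3 ± 0.56 points in the innermost step (SD, n = 2), then 5.70 ± 0.85, 3.48 ± 0.31, 2.05 ± 0.70 and 0.077 ± 0.060 points in the outermost. The arm genes just beyond, at 2500 to 3500 kb, lay 1.39 ± 0.063 points below the rest of the arm genes. The base coverage followed the same order, from 20.6% ± 0.40 of gene bases in the innermost step to 14.2% ± 0.98 in the outermost. Arm genes of the same length had 14.7% ± 1.07 and 15.0% ± 1.09. Coverage was thus below that of arm genes in the outermost step (-0.72 ± 0.11 points), and also at 1500 to 2000 kb (-0.16 ± 0.10).

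Chromosome 2 holds 120 of the 193 innermost genes. Without the genes of its mitochondria-like stretch, described next, the innermost step had 96 genes and lay 6.36 ± 1.15 points above arm genes of the same length as the mean of the replicates, and 4.71 points for a peak in both, down from 10.4. The next step outward lay 5.70 ± 0.85 points above as the mean and 5.79 points for a peak in both. Without the stretch the innermost step was thus not the highest for a peak in both replicates. The innermost 23 genes of chromosome 3 lay 13.5 ± 2.73 points above arm genes of the same length as the mean of the replicates. The innermost 26 genes of chromosome 4 lay 10.6 ± 2.15 points above. The innermost 10 genes of chromosome 1 went the other way, with 50.0% in each replicate against 68.2% ± 3.88 for arm genes of the same length. The innermost 14 genes of chromosome 5 lay below arm genes of the same length in replicate 1 (57.1% against 61.7%) and above them in replicate 2 (64.3% against 56.5%).

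**Figure D3:**
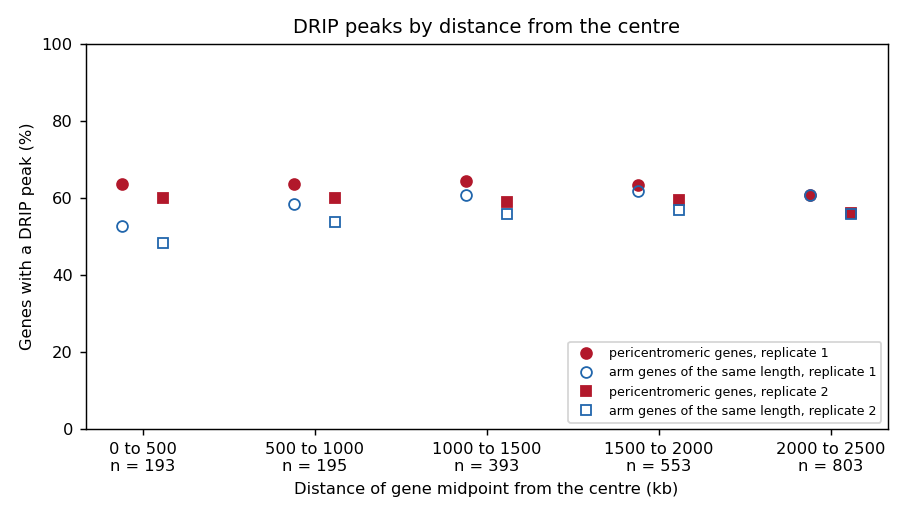
Share of genes with a DRIP peak (%, vertical axis) by distance of the gene midpoint from the centre in steps of 500 kb (horizontal axis, n is the number of pericentromeric genes). Filled red points are pericentromeric genes and open blue points arm genes weighted to the same lengths, with circles for replicate 1 and squares for replicate 2; the red and blue points are farthest apart in the innermost step and meet in the outermost.

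Chromosome 2 carries near its centromere a large insertion of mitochondrial DNA, a known feature of the Columbia genome, and the 97 genes in a stretch of 350 kb from 3.2 Mb were looked at separately for that reason. They were short, with a median of 883 bp. A DRIP peak in both replicates was found at 57 of them (58.8%), against 42.7% of arm genes of the same length and 60.6% of all protein-coding genes. Their folds were low: the median was 2.42 in replicate 1 and 2.56 in replicate 2, against 3.54 and 3.47 for arm genes weighted to the same lengths. Peaks lay over 22.9% ± 0.038 of their bases (SD, n = 2), against 14.9% ± 1.08. How reads that align to several places were treated before the peaks were called is not given in the sources used here, and their part in the peaks of this stretch, and in the chromosome 2 and innermost values that include it, was not tested.

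The 3 highest of these genes by the smaller of their folds were AT2G07773, AT2G07732 and ABCI4. AT2G07773 had folds of 4.23 and 4.96 in replicates 1 and 2, with 69.7% and 78.7% of its bases under peaks. AT2G07732 had folds of 3.79 and 4.08, with 89.3% and 84.7% under peaks. ABCI4 had folds of 3.39 and 4.00, and its 3 peaks in each replicate covered 21.7% and 23.2% of it. AT2G07718 held 6 peaks in each replicate, with highest folds of 2.45 and 2.70. Without the 97 genes the overall difference in the share with a peak in both replicates was 2.18 points.

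The gene with the highest fold lay almost at the centre of the chromosome 2 window. AT2G08986, of 8403 bp and 22.3 kb from the centre, lies outside the mitochondria-like stretch. It carried 9 peaks in each of the 4 lists, with folds from 3.16 to 10.5 in replicate 1 and from 2.53 to 11.1 in replicate 2. All 9 replicate 1 peaks were overlapped by a replicate 2 peak and by a c peak, and 8 of the 9 by a w peak. The strongest lay at chromosome 2, 3625879 to 3626412, in replicate 1 (fold 10.5) and 3625876 to 3626409 in replicate 2 (11.1). The w list had a peak there at 3625904 to 3626423 (fold 11.0) and the c list at 3625861 to 3626371 (9.58), so both strands were called over nearly the same bases.

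AT1G36990 came next, with folds of 9.49 and 9.60 from a single wide peak at chromosome 1, 14029505 to 14030556 in replicate 1. Its c peak spanned 1079 bp and its w peak only 234 bp, with folds of 9.02 and 8.55. AT1G35510 had folds of 6.94 and 7.22, and its strongest c peak (10.5) and w peak (6.93) overlapped at one end and were otherwise shifted along the gene.

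The other genes ranked by the smaller of their 2 folds were close to one another, from 6.30 to 6.72. XTH4, which encodes a cell wall xyloglucan-modifying enzyme, had folds of 6.70 and 6.58 and a c peak of 11.4 with no w peak. CUE1, the plastid phosphoenolpyruvate transporter gene, had 6.56 and 6.72 and a c peak of 7.76 alone. ACC1, the cytosolic acetyl-CoA carboxylase gene, had 6.38 and 6.67 and carried both a c peak (8.01) and a w peak (5.26). LSH1, a gene of light-dependent seedling growth, had 6.30 and 6.40 with a w peak of 10.5 alone, and its 126 bp neighbour AT5G28491 lies under the same peak. AT5G26990 had 6.70 and 6.31, and AT3G43110 had 6.30 and 6.31 with 58.3% and 59.5% of its bases under peaks. The replicates differed most at AT5G26990, and by less than the step down from AT1G36990 to these genes.

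**Figure D4:**
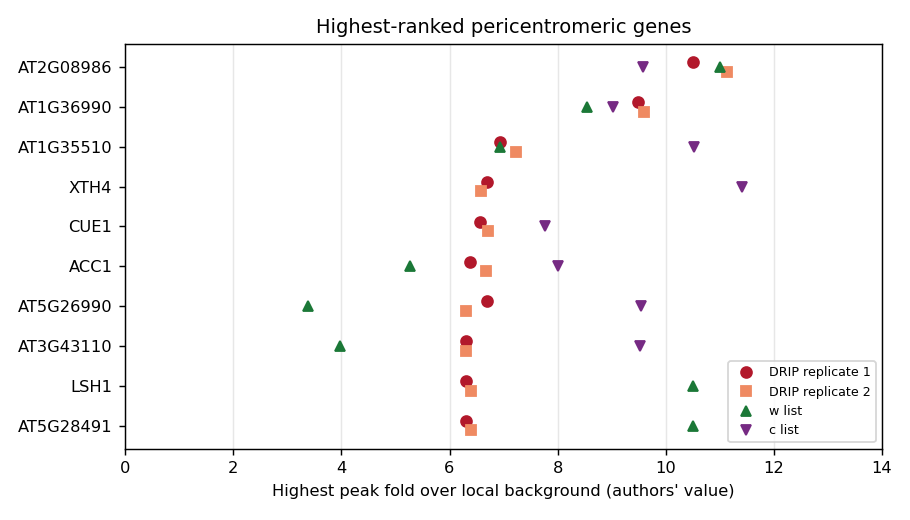
Highest peak fold over local background (authors' value, horizontal axis) in each of the 4 lists for the 10 pericentromeric genes ranked highest by the smaller of their replicate folds (vertical axis). Circles and squares are DRIP replicates 1 and 2, upward triangles the w list and downward triangles the c list; a missing triangle means no peak in that list, and AT2G08986 and AT1G36990 stand apart from the other 8 in the DRIP replicates.

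Each chromosome had its own leading genes. On chromosome 3 AT3G43110 was followed by AT3G43710 (5.74 and 5.67) and J3 (5.74 and 5.67), a DnaJ co-chaperone gene with a c peak of 9.02 alone. On chromosome 4 the highest were AT4G10330 (6.38 and 6.22), FBH2 (6.14 and 6.58), a bHLH transcription factor gene of flowering, and AT4G08263 (6.96 and 5.92). FBH2 had a w peak of 10.5 and no c peak. On chromosome 2 CR88, the chloroplast HSP90 gene, followed AT2G08986 and XTH4 with 5.98 and 6.67.

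Of the 15 genes nearest to the centres, 3 on each chromosome and 6.10 to 238.0 kb away, 8 were called in both replicates and 3 in no list, beside 60.6% and 20.7% of all protein-coding genes. AT1G40104, 16.1 kb from the centre of chromosome 1, held 5 peaks in each replicate with highest folds of 3.76 and 4.42. RAP2.9, a transcription factor gene of the DREB family 74.2 kb from the centre of chromosome 4, had folds of 4.47 and 4.11 with 61.1% and 67.7% of its bases covered. RPS1, the plastid ribosomal protein S1 gene 79.9 kb from the centre of chromosome 5, had 3.99 and 3.02, while its neighbour GolS10, a galactinol synthase gene, was called in neither replicate and had a w peak of 3.24.

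Several long genes were crowded with peaks and others had none. After AT2G08986, PRP40A, a pre-mRNA splicing factor gene, held 8 peaks in replicate 1 and 6 in replicate 2. ELF8, a gene of the Paf1 transcription elongation complex, held 6 in each, and AT2G11010 held 6 and 4. Coverage was widest, among genes of at least 1 kb, at AT2G12875 (89.2% and 92.0% of bases), AT2G04380 (85.1% and all of them) and ATPD (86.8% and 84.8%), the gene of the chloroplast ATP synthase delta subunit. AT3G44326 and AT2G10965 completed that group, with at least 81.8% in each replicate.

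No peak in any of the 4 lists was found at 542 genes (25.4%), beside 20.7% of all protein-coding genes and 27.5% of arm genes of the same length. Their median length was 892 bp, against 1887 bp for genes with a peak. In the longest quartile 43 of 534 genes (8.05%) were among them, against 7.87% of arm genes of the same length. The longest was AT1G39070, of 12459 bp and 360.2 kb from the centre of chromosome 1. CTC1, of 6606 bp, encodes a telomere maintenance factor, and KEA3, of 5104 bp, a thylakoid potassium antiporter. AT5G28237, AT1G35220 and AT4G04750, from 5023 to 6312 bp, had none either.

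The strand lists covered similar shares of the genes. A w peak was found at 1096 genes (51.3%, 95% Wilson interval 49.2 to 53.4), beside 54.9% of all protein-coding genes and 48.5% of arm genes of the same length. A c peak was found at 1060 genes (49.6%, 47.5 to 51.7), beside 54.8% and 48.6%. These intervals cover counting error only and take genes as independent, which neighbours under one peak are not. The w peak stood alone at 525 genes (24.57%) and the c peak at 489 (22.88%). Both were present at 571 (26.72%) and neither at 552 (25.83%). For arm genes of the same length the shares were, in the same order, 23.44%, 23.55%, 25.03% and 27.97%. On chromosome 1 the lists differed most, with a w peak at 224 of 417 genes (53.7%) and a c peak at 182 (43.6%). Arm genes of the same length stood at 49.0% and 49.1%. In a run of neighbouring, mostly short genes there, from AT1G34795 to AT1G35040, most had a w peak and none a c peak. The part of this run in the chromosome 1 difference was not tested. How the chromosome 1 genes divide by transcribed strand was not analysed here.

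Genes with DRIP peaks in both replicates were almost always found on a strand list, in the windows and in the arms alike. The strand lists are recorded under DRIP replicate 1, so they may not be independent of its peaks. Of these 1207 pericentromeric genes, 337 had a w peak alone (27.9%), 336 a c peak alone (27.8%), 532 both (44.1%) and 2 neither (0.17%). For arm genes of the same length the shares were 29.1%, 29.1%, 41.7% and 0.11%. Among the 760 genes with no DRIP peak, 118 had a w peak alone (15.5%), 88 a c peak alone (11.6%) and 12 both (1.58%). Arm genes of the same length stood at 13.2%, 12.8% and 2.08%. The 118 include genes of the chromosome 1 run from AT1G34795 to AT1G35040, such as AT1G34795 and AT1G34800. The highest w folds among genes with no other gene within 500 bp were at CR88 (10.7), FBH2 (10.5), AT4G08910 (10.3), AT4G09560 (9.87) and AT3G29790 (9.81). FBH2, AT4G08910 and AT4G09560 were absent from the c list. That list was led by XTH4 (11.4), AGP5 (10.8), an arabinogalactan protein gene, AT4G04960 (10.8), AT1G35510 (10.5) and AT2G05920 (9.92), and the first 2 had no w peak.

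Peaks were less confined to the gene body than in the arms. In 520 pericentromeric genes of at least 1500 bp with no other gene within 500 bp, the outer 500 bp inside the gene ends were covered 17.6% ± 0.96 (SD, n = 2) and the 500 bp just outside 7.54% ± 0.65. In 4020 arm genes chosen the same way the values were 17.0% ± 0.93 inside and 5.87% ± 0.12 outside. The log2 ratio of inside to outside was 1.19 in replicate 1 and 1.26 in replicate 2 for pericentromeric genes. Their mean of 1.22 ± 0.05 lay below the 1.54 ± 0.05 of arm genes, and both replicates of the one lay below both of the other. Median lengths were 2503 and 2467 bp. Without the mitochondria-like stretch the pericentromeric ratio was 1.23 ± 0.05, and for chromosomes 1, 3 and 4 alone it was 1.07 ± 0.04.

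The tilt of the strand lists toward opposite gene ends was present and somewhat flatter. In the same pericentromeric genes w peaks covered 8.94% of the first 500 bp at the lower-coordinate end and 17.2% of the last 500 bp at the higher one, a log2 ratio of -0.94, against -1.33 in arm genes. The c peaks covered 16.6% and 7.62%, a log2 ratio of 1.12, against 1.36. There is a single list for each strand, so this difference has no replicate check.

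**Figure D5:**
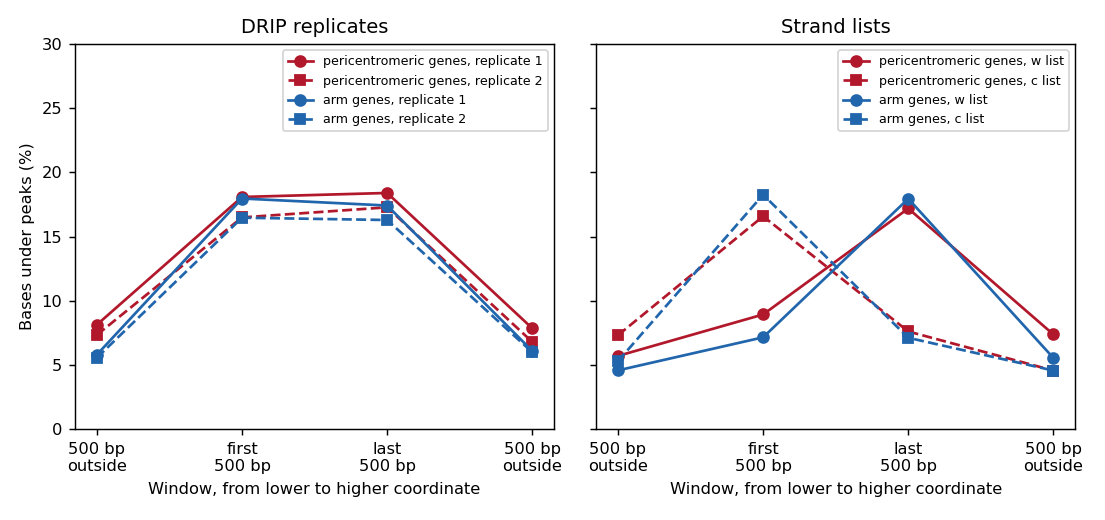
Bases under peaks (%, vertical axis) in 500 bp windows outside and inside the ends of genes of at least 1500 bp with no other gene within 500 bp, ordered from lower to higher coordinate (horizontal axis). Red lines are 520 pericentromeric and blue lines 4020 arm genes, with DRIP replicates on the left and the w and c lists on the right; outside the gene ends the red lines lie above the blue ones in both replicates.

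The neighbours of these genes differ from those in the arms. The nearest annotated gene was listed as a pseudogene for 583 pericentromeric genes (27.3%) and for 3.37% of arm genes. A DRIP peak in both replicates was found at 52.8% of the 583, against 48.6% of 852 arm genes of the same length that also had a pseudogene next to them. For the 1554 genes with another kind of neighbour the shares were 57.9% and 55.1%. A gene symbol beyond the locus number is given for 539 pericentromeric genes (25.2%) and 38.8% of arm genes. Genes with a symbol had a peak in both replicates in 64.4% of cases against 65.4% of arm genes of the same length with one, while genes known by locus number alone stood at 53.8% against 49.8%.

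Known genes were grouped by function in 8 lists, chosen with earlier results of these data known, and 74 of the 75 genes listed were pericentromeric. Of the 74, 62 had a DRIP peak in both replicates (83.8%), against 70.9% of arm genes of their lengths, and the median of their mean folds was 3.74, against 3.47 for all pericentromeric and 3.72 for all protein-coding genes with a peak in both. The lists hold genes picked because they are well known, and these counts are a description.

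Of the photosynthesis and chlorophyll genes, 6 of 9 had a peak in both replicates, against 63.4% of arm genes of their lengths. The light-harvesting genes LHCB2.1 (5.50 and 4.66) and LHCB2.2 (3.92 and 4.26) led, ahead of GAPB (3.11 and 2.65) of the Calvin cycle and CH1 (2.47 and 3.02) of chlorophyll b synthesis. LHCB2.1 and LHCB2.2 are near-identical copies, so reads could be shared between them. AT2G04700 and PSBQ-2, a photosystem II subunit gene, had a peak in replicate 1 only, and FIB, a plastoglobule fibrillin gene, had no peak in any list. The group's median fold of 2.89 was below that of all pericentromeric genes.

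Metabolic genes had peaks in both replicates in 10 of 12 cases, against 75.8% of arm genes of their lengths. After ACC1 came NIA2, the major nitrate reductase gene (5.66 and 5.76), ACC2, the plastid acetyl-CoA carboxylase gene (4.53 and 4.12), and ATSPS4F, a sucrose phosphate synthase gene (4.07 and 4.21). The adjacent nitrilase genes NIT1 and NIT2 were called in neither replicate, and NIT1 had a w peak of 3.24. Of the ubiquitin, chaperone and calmodulin genes, 5 of 6 had a peak in both, against 69.1%. CR88 and J3 led, with CAM7 (3.99 and 3.93) and BIP1, the endoplasmic reticulum HSP70 gene (4.10 and 3.56), behind them. The polyubiquitin gene UBQ11 had a peak in replicate 2 only, with a fold of 1.83.

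Light and hormone signalling genes carried peaks in both replicates in 10 of 11 cases, against 71.1%. DET1 (5.82 and 4.94) and DDB1A (4.79 and 5.21), whose products act together in repressing light responses, ranked first, ahead of the bZIP transcription factor gene BZO2H3 (4.06 and 3.26) and the blue light receptor gene CRY1 (3.51 and 3.11). GID1C, a gibberellin receptor gene, had no peak in any list. All 11 immunity genes had a peak in both replicates, against 74.0% of arm genes of their lengths, with AT3G44630 (5.28 and 5.11), the receptor kinase gene SERK4 (3.75 and 4.57), the callose synthase gene GSL05 (3.75 and 4.02) and the protease gene CDR1 (4.39 and 3.57) ranked highest.

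Developmental regulators were the one list slightly below arm genes of their lengths, with 8 of 12 against 69.2%. SAP (5.14 and 5.12), VIP1 (6.12 and 4.67), the homeobox gene KNAT1 (4.39 and 4.84) and the leaf growth coactivator gene AN3 (4.25 and 4.94) had the highest smaller folds. VIP1 differed most between the replicates. The MADS-box gene SEP4 had no DRIP peak but a w peak of 2.66, and TT1, RAP2.6 and AGL44 each had a peak in 1 replicate.

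Replication and chromatin genes had peaks in both replicates in 7 of 8 cases, against 74.2%. MCM2, of the replicative helicase, had folds of 5.18 and 5.76. DAYSLEEPER, a gene derived from a transposase, had 5.22 and 5.02 and lies 522.5 kb from the centre of chromosome 3, and ARP6, of the complex that deposits the histone variant H2A.Z, had 4.04 and 4.44 at 294.6 kb. ABH1, a cap-binding protein gene, had 4.31 and 4.75. SFR6, a Mediator subunit gene of 7957 bp, was called in neither replicate and had a w peak of 2.95. All 5 cell wall genes had peaks in both, against 66.9%, with CALS5 (5.26 and 5.21), EXO (3.83 and 4.11) and GRP-3 (4.17 and 3.81) after XTH4.

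Genes on either side of the window borders were looked at as a description. Of the 10 genes just inside it, 2488.6 to 2499.0 kb from a centre, 3 had a DRIP peak in both replicates and 6 had none, beside 60.6% and 31.2% of all protein-coding genes. Of the 10 just outside, at 2500.4 to 2509.5 kb, 4 had one in both and 5 had none. Mean folds ran from 3.34 to 4.59 inside, where the histone deacetylase gene HDA3 was highest, and from 3.63 to 5.93 outside, where the exocyst gene EXO70E1 was highest. AT4G03410 inside and DFL2 outside share one peak across the border on chromosome 4.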

How the data were processed

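DRIP libraries of 12-day-old seedlings were used as peak lists. The submitters' processing notes name CASAVA, BWA 0.7.12, MACS2 and the TAIR10 build. Which control library and parameters were used, and whether samples were pooled, is not given in the sources used here. The deposited fold (ratio of summit height to local background), -log10 p-value, -log10 q-value and score of each peak are the authors' values. Every peak had a -log10 q-value of at least 1.30.

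Genes, from RefSeq's TAIR10.1 table, were joined to peaks by position; shifting the peaks of each window put most bases in genes at -50 to 50 bp. The table gives no transcribed strand, so the planned comparison by gene strand was not run, and no sequence was used. A gene carried a peak when at least 1 bp overlapped. Arm genes were weighted to the lengths of the genes compared over 20 quantile bins (Python 3.11.15, numpy 2.4.6, pandas 2.3.3, statsmodels 0.14.6), a step tested on simulated data. SD is over the 2 replicates.

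Genes, lists and comparisons were chosen with earlier results of these data known. Genes named are, by rule, the 10 ranked highest by the smaller of their replicate folds and 3 per chromosome, the 6 longest without a peak, the 5 highest w and c folds among genes with no other gene within 500 bp, up to 4 per list and those without a DRIP peak, 3 nearest each centre, those at the window borders, and the 5 with most peaks or coverage. Genes of the mitochondria-like stretch and list members with a peak in 1 replicate were chosen after their values were seen. Alternatives varied the overlap, peak threshold, length matching, window, gene set and replicate.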

Additional observations from a re-analysis of the deposited data

How the results depend on the processing

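No paired analysis was possible because the RNase H samples, which share replicate numbers with the DRIP samples, were not analysed here; gene groups were compared within each replicate. The difference between pericentromeric genes and arm genes of the same length in the share with a peak in both replicates, 2.75 points, was 1.43 with the summit inside the gene, 0.43 with at least 0.5 of the peak inside, 2.34 at a -log10 q-value of 3, 5.80 in windows of 1.5 Mb, 2.44 without arm genes within 5 Mb, 2.18 without the mitochondria-like stretch and 4.02 without chromosome 4. It turned to -1.51 with peaks above the median fold and to -4.45 without length matching. In alternatives chosen after seeing the data it was 1.40 without chromosome 2, 1.72 without chromosome 5, -0.49 without both, -1.05 for genes with a symbol and 4.07 for genes without one. Leaving out a replicate gave 2.51 to 2.90. The difference in base coverage, 0.81 points, was -0.26 with peaks above the median fold, 0.70 without length matching, 3.29 in windows of 1.5 Mb, 0.60 without the mitochondria-like stretch, 1.28 without chromosome 4 and -0.083 without chromosomes 2 and 5, and, also chosen after seeing the data, -0.46 for genes with no other gene within 500 bp, -0.17 for genes with a symbol and 1.43 for genes without one. It ran from 0.74 to 0.89 without a replicate. The w difference, 2.81 points, was -3.92 without length matching, 6.19 in windows of 1.5 Mb, 1.67 with the summit inside the gene, 4.46 without chromosome 4 and 0.95 without chromosomes 2 and 5. The c difference, 1.02 points, was -5.65 and 5.52 in the first pair of these, 0.17 with the summit inside the gene, 1.95 without chromosome 4, -0.061 without the mitochondria-like stretch and -1.99 without chromosomes 2 and 5. The difference in median fold, -0.23, was -0.25 without length matching, -0.31 in windows of 1.5 Mb, -0.16 without the mitochondria-like stretch, -0.21 without chromosomes 2 and 5, and -0.24 to -0.22 without a replicate. The excess of the innermost 500 kb, 10.4 points, was 4.71 without the mitochondria-like stretch and 10.9 to 11.7 without a replicate. Apart from length matching, the cause was not tested. Depth is unknown, so genes without a peak may hold R-loops below detection.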
